A study of Mus musculus with 16 samples.

Results

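Complement components and their receptors were followed across whole mouse lungs: the 3 C1q chains C1qa, C1qb and C1qc, the protease precursor Cfb, and the anaphylatoxin receptors C3ar1 and C5ar1. The genes were chosen by symbol in the platform annotation, with 1 probe set per gene. Of 7 genes listed, 6 were measured, among 19938 named genes on the array. C3, the other listed gene, was not analysed here.

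Total lung RNA was measured on 16 Affymetrix whole-transcript arrays, and levels are normalised log2 values. All mice were on a C57BL/6 background and 10 to 12 weeks of age, and were given crystalline silica (CS), the mineral dust that causes silicosis, or phosphate buffered saline (PBS) by the intratracheal route. BLT1 is a receptor for the leukotriene LTB4, which draws neutrophils into tissue, and KRasLA1 is an oncogenic allele that becomes active by chance recombination in single cells and leads to lung tumours. The 4 CS groups held 3 lungs each: BLT1-/-KRasLA1 at day 60, BLT1+/+KRasLA1 at day 60, BLT1-/- at day 2 and BLT1+/+ at day 2. Each had as its control 1 array of RNA pooled from 3 PBS mice of the same genotype and day. Lungs at day 60 carried KRasLA1 and lungs at day 2 did not, so day and allele cannot be told apart. The CS lungs are labelled as biological replicates, with no animal numbers, and p-values measure the spread between these lungs.

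Complement is a cascade of plasma and tissue proteins that marks particles and cells for uptake and calls in leukocytes. C1q, built from the products of C1qa, C1qb and C1qc, starts the classical pathway when it binds antibody or altered surfaces, and in tissues it is made mainly by macrophages. Factor B, the product of Cfb, supplies the protease of the alternative pathway convertase, while the receptors encoded by C3ar1 and C5ar1 sense the fragments C3a and C5a on myeloid cells. The liver makes most of the complement proteins in plasma, and inflamed epithelium and macrophages make some of them locally.

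A few features of the arrays bear on what follows. Ltb4r1, the gene of BLT1, spanned 7.22 to 7.56 on the 8 BLT1-/- arrays and 7.26 to 7.63 on the 8 BLT1+/+ arrays, so its probe set did not separate the genotypes. Where that probe set lies relative to the deletion is not known here, and it does not check the labels. The Y-linked gene Eif2s3y was high on 3 arrays, at 10.09 in replicate 2 of the BLT1+/+KRasLA1 CS lungs, 9.04 in the BLT1-/-KRasLA1 PBS pool and 9.68 in the BLT1+/+KRasLA1 PBS pool. On the other 13 arrays it lay between 4.27 and 4.74, so the PBS pools at day 60 differ from 5 of their 6 CS lungs in this respect, and the part of this in the day 60 results was not tested. The fits without the single lung are given below for the 6 genes and for the other complement genes called at day 60. Lung epithelial markers stood near the top of the arrays, with 12 of 14 above the 90th percentile of all gene levels.

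In the genome the 3 C1q genes stand next to each other on chromosome 4 in the order C1qb, C1qc, C1qa, between Ephb2 and Epha8. Cfb is on chromosome 17 beside C2, C3ar1 on chromosome 6 and C5ar1 on chromosome 7 beside C5ar2. Promoters of 4 of the 6 measured genes were in the RefSeq table (GRCm38.p6) and are shown because they include both genes that rose with silica and 1 that did not. Each runs from 250 bases before to 50 bases after the start of the gene, 5' to 3' on the coding strand, and capitals mark matches on either strand to GAGGAA, a core bound by ETS-family factors of myeloid cells, and to TGANTCA, the AP-1 motif. They lie on the minus strand at chr4:136886151-136886450 (C1qb), chr4:136892865-136893164 (C1qc), chr6:122856108-122856407 (C3ar1) and chr7:16259289-16259588 (C5ar1).
C1qb: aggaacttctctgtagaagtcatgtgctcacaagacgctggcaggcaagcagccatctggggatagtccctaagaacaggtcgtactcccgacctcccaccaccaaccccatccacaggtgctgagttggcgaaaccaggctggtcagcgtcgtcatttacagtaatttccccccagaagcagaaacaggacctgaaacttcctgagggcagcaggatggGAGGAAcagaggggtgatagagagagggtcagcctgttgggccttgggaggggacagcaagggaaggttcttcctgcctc
C1qc: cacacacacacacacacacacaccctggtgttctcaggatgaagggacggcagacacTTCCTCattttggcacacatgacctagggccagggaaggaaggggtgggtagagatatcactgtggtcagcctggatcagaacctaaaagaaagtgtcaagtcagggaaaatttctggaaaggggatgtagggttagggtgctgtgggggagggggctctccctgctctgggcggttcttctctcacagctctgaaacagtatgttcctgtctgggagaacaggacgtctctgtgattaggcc
C3ar1: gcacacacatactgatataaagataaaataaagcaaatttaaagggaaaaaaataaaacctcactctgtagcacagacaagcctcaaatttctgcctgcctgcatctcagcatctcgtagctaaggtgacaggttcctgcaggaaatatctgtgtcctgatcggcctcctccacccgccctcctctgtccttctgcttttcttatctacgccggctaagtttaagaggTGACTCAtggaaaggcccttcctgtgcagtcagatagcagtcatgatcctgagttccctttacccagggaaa
C5ar1: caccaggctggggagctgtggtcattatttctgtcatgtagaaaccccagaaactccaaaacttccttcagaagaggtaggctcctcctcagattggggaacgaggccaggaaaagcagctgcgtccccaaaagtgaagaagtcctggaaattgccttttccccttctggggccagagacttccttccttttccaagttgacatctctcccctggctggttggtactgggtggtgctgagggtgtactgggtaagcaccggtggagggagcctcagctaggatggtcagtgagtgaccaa

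C1qb held GAGGAA at bases -30 to -25, counted back from the first transcribed base, and C1qc held it on the reverse strand at -193 to -188. This motif was in 28.3% of 32851 promoters of that length. C3ar1 held the AP-1 motif at -22 to -16, and 7.8% of all promoters held it. In C5ar1 neither was found in this window. A STAT motif (TTCNNNGAA, in 8.3% of promoters), searched on both strands, was in none of the 4, and TATAAA, in 13.6%, was in C3ar1 alone, at -235 to -230. These matches describe the letters only.

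**Figure D1:**
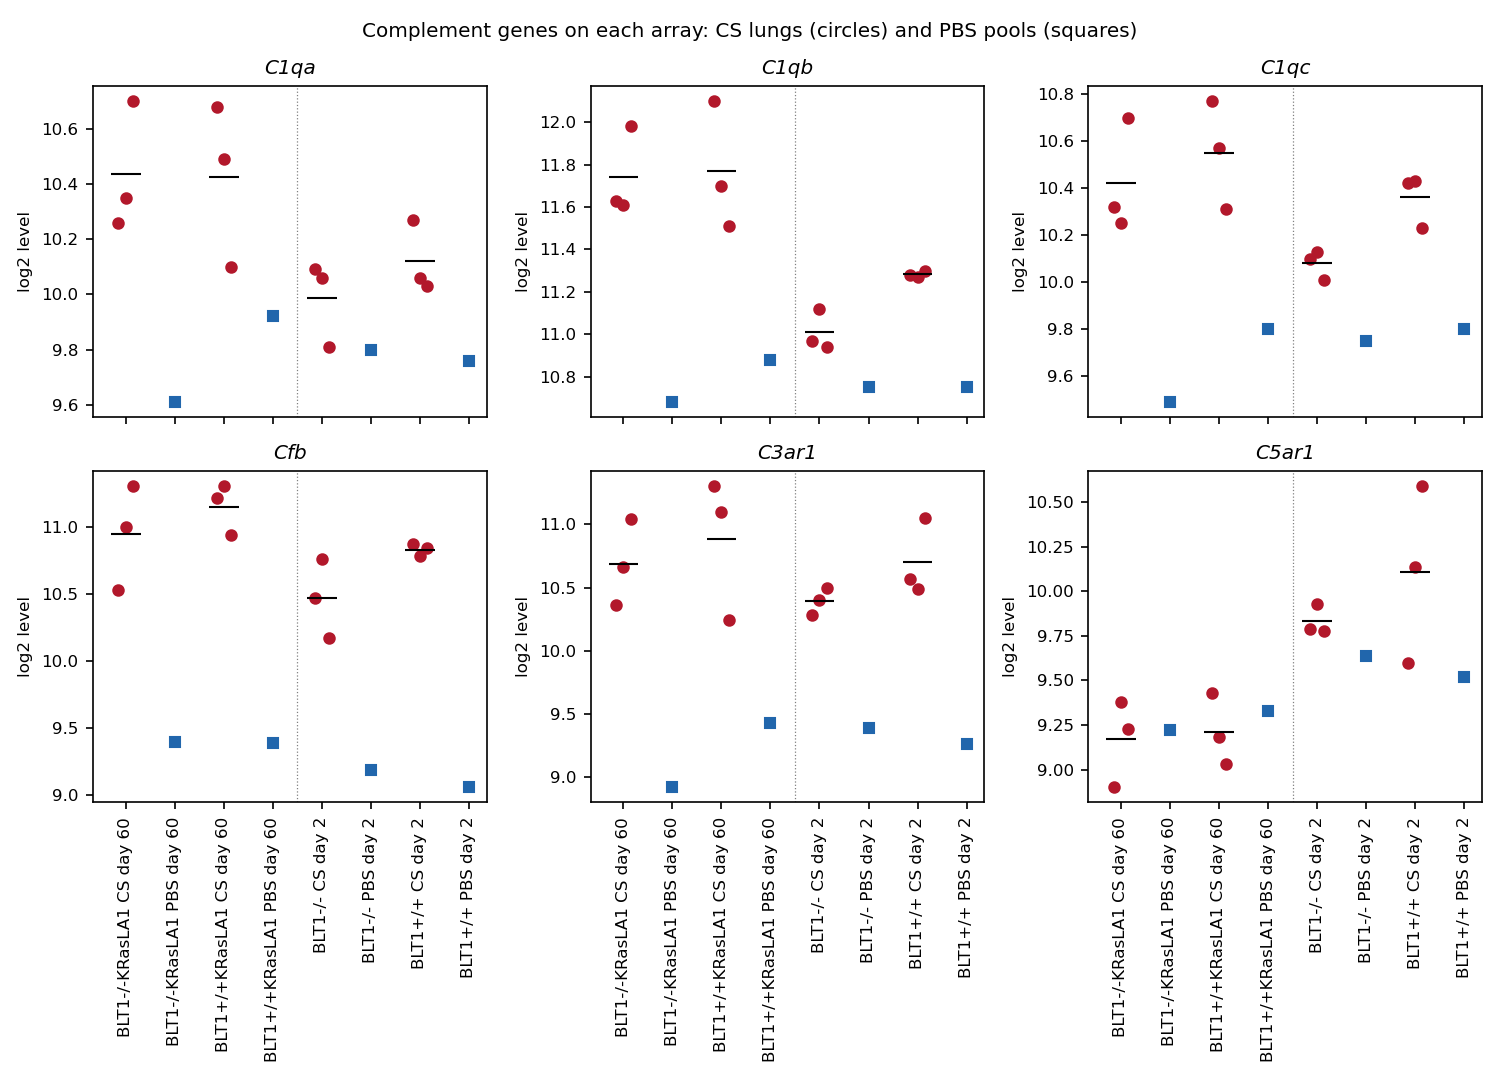
Normalised log2 level (vertical axis) of each of the 6 measured complement genes on every array, by group. Circles are single CS lungs, bars their means and squares PBS pools, and the dotted line parts day 60 from day 2. Every CS lung lies above both pools of its day for all genes except C5ar1.

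After silica, 5 of the 6 genes rose at day 60 and 3 of the 6 at day 2. At day 60, CS lungs averaged over both BLT1 genotypes were 3.15-fold higher than PBS pools for Cfb, 3.05-fold for C3ar1 and 1.97-fold for C1qb, with C1qc and C1qa also past the threshold. At day 2 the called genes were Cfb, C3ar1 and C1qc. C5ar1 was not called at either day. Calls here are a Benjamini-Hochberg adjusted p under 0.05 in limma over all 19938 genes, of which 3.35% were called higher at day 60 and 8.03% at day 2. For 5 of the 6 genes every CS lung lay above both pools of its day, as for 9.66% of all genes at day 60 and 12.1% at day 2. The median log2 response of the 6 genes was 0.91 at day 60 and 0.42 at day 2, and that of all genes was -0.03 and -0.02 at those days. In whole lung, more cells of a type and more RNA per cell cannot be told apart.

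C1qb encodes the B chain of C1q. At day 60 it lay at 11.63, 11.61 and 11.98 in BLT1-/-KRasLA1 CS lungs, against 10.68 in their PBS pool, and at 12.10, 11.70 and 11.51 in BLT1+/+KRasLA1 CS lungs, against 10.88 in theirs. At day 2 it lay at 10.97, 11.12 and 10.94 in BLT1-/- CS lungs, against 10.75 in their pool, and at 11.28, 11.27 and 11.30 in BLT1+/+ CS lungs, against 10.75 in theirs. All CS lungs were above both pools of their day. Every day 60 CS lung was also above every day 2 CS lung, and the share of all genes parted by day in this way was not counted. The log2 difference between CS lungs and PBS pools, averaged over genotypes, was 0.98 ± 0.13 (SE) at day 60 (limma, adjusted p = 0.000863) and 0.40 ± 0.13 at day 2 (adjusted p = 0.0616).

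C1qc encodes the C chain. At day 60 its levels were 10.32, 10.25 and 10.70 in BLT1-/-KRasLA1 CS lungs, against 9.49 in the PBS pool, and 10.77, 10.57 and 10.31 in BLT1+/+KRasLA1 CS lungs, against 9.80 in the pool. At day 2 they were 10.10, 10.13 and 10.01 in BLT1-/- CS lungs, against 9.75 in the pool, and 10.42, 10.43 and 10.23 in BLT1+/+ CS lungs, against 9.80 in the pool. CS lungs and pools did not overlap at either day, and CS lungs of the 2 days did. C1qc rose by a log2 difference of 0.84 ± 0.13 at day 60 (limma, adjusted p = 0.00182) and 0.45 ± 0.13 at day 2 (adjusted p = 0.0331). With each genotype set against its own pool, the day 2 difference was 0.56 in BLT1+/+ lungs and 0.33 in BLT1-/- lungs, and neither was called. How far the day 2 call of the mean rests on either pool was not tested. That call was lost without replicate 2 of the BLT1-/- CS lungs (adjusted p = 0.058) and without replicate 2 of the BLT1+/+ CS lungs (adjusted p = 0.0659).

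C1qa, the A chain, had the lowest estimated response of the 3, with an interval that overlapped those of the other two. At day 60 it was at 10.26, 10.35 and 10.70 in BLT1-/-KRasLA1 CS lungs, against 9.61 in the PBS pool, and at 10.68, 10.49 and 10.10 in BLT1+/+KRasLA1 CS lungs, against 9.92 in the pool. The day 2 levels were 10.09, 10.06 and 9.81 in BLT1-/- CS lungs, against 9.80 in the pool, and 10.27, 10.06 and 10.03 in BLT1+/+ CS lungs, against 9.76 in the pool. The lowest day 2 CS lung stood only just above the higher pool. C1qa rose at day 60, by a log2 difference of 0.67 ± 0.14 (limma, adjusted p = 0.0178), and at day 2 the difference was 0.27 ± 0.14 (adjusted p = 0.281, 95% interval -0.04 to 0.58).

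Cfb, of the alternative pathway, had the highest estimated response of the 6 genes at both days, with an interval that overlapped that of C3ar1. At day 60 its level was 10.53, 11 and 11.30 in BLT1-/-KRasLA1 CS lungs, against 9.40 in the PBS pool, and 11.21, 11.30 and 10.94 in BLT1+/+KRasLA1 CS lungs, against 9.39 in the pool. At day 2 it was 10.47, 10.76 and 10.17 in BLT1-/- CS lungs, against 9.19 in the pool, and 10.87, 10.78 and 10.84 in BLT1+/+ CS lungs, against 9.06 in the pool. The lowest CS lung of either day was well above the highest pool. Cfb rose by a log2 difference of 1.65 ± 0.17 at day 60 (limma, adjusted p = 0.000176) and 1.53 ± 0.17 at day 2 (adjusted p = 0.000255, 2.88-fold). It was the 1 gene of the 6 called in each of the 4 groups taken alone. C2, its neighbour and classical pathway counterpart, differed by 0.15 at day 60 and 0.10 at day 2 and was not called.

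C3ar1, the receptor of C3a, varied more between lungs. At day 60 it was at 10.36, 10.66 and 11.04 in BLT1-/-KRasLA1 CS lungs, against 8.92 in the PBS pool, and at 11.30, 11.10 and 10.24 in BLT1+/+KRasLA1 CS lungs, against 9.43 in the pool. At day 2 it was at 10.28, 10.40 and 10.50 in BLT1-/- CS lungs, against 9.39 in the pool, and at 10.57, 10.49 and 11.05 in BLT1+/+ CS lungs, against 9.26 in the pool. Every CS lung lay above every pool, and the 2 days overlapped among CS lungs. The SD over 3 lungs reached 0.56 in the BLT1+/+KRasLA1 CS group. C3ar1 rose by a log2 difference of 1.61 ± 0.24 at day 60 (limma, adjusted p = 0.00169) and 1.23 ± 0.24 at day 2 (adjusted p = 0.00487, 2.34-fold).

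C5ar1, the receptor of C5a, had no called response. At day 60 it was at 8.90, 9.38 and 9.23 in BLT1-/-KRasLA1 CS lungs, against 9.22 in the PBS pool, and at 9.43, 9.18 and 9.03 in BLT1+/+KRasLA1 CS lungs, against 9.33 in the pool. In day 2 lungs it was at 9.79, 9.93 and 9.78 in BLT1-/- CS lungs, against 9.64 in the pool, and at 9.60, 10.14 and 10.59 in BLT1+/+ CS lungs, against 9.52 in the pool. CS lungs and pools overlapped at both days. Every day 2 CS lung was above every day 60 CS lung, and here too the share of all genes parted by day was not counted. The log2 difference was -0.09 ± 0.20 at day 60 (limma, adjusted p = 0.906, 95% interval -0.51 to 0.34, with 3 of 6 lungs on each side of their pool) and 0.39 ± 0.20 at day 2 (adjusted p = 0.242, interval -0.03 to 0.81). Without replicate 1 of the BLT1+/+ CS lungs, the lowest of its group, the day 2 difference was 0.52 and passed the threshold (adjusted p = 0.0295).

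Leaving out replicate 2 of the BLT1+/+KRasLA1 CS lungs, the lung with high Eif2s3y, kept all 5 day 60 calls, with log2 differences of 0.65 for C1qa (limma, adjusted p = 0.037), 1.00 for C1qb, 0.84 for C1qc, 1.62 for Cfb and 1.55 for C3ar1. C5ar1 was at -0.08 in that fit (adjusted p = 0.937), and the BLT1 difference at day 60, the interaction at day 60 and the difference between days still gave 0 calls of the 6. The PBS side rests on 2 pools a day. An additive fit of the day 60 arrays without 1 pool takes its silica term from the genotype that keeps its pool. It therefore repeats the log2 differences of that genotype, which had the same sign for the 5 genes. For C1qa they were 0.83 in BLT1-/-KRasLA1 lungs and 0.51 in BLT1+/+KRasLA1 lungs. Such a fit also has fewer arrays, so how far a call rests on either pool was not tested.

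**Figure D2:**
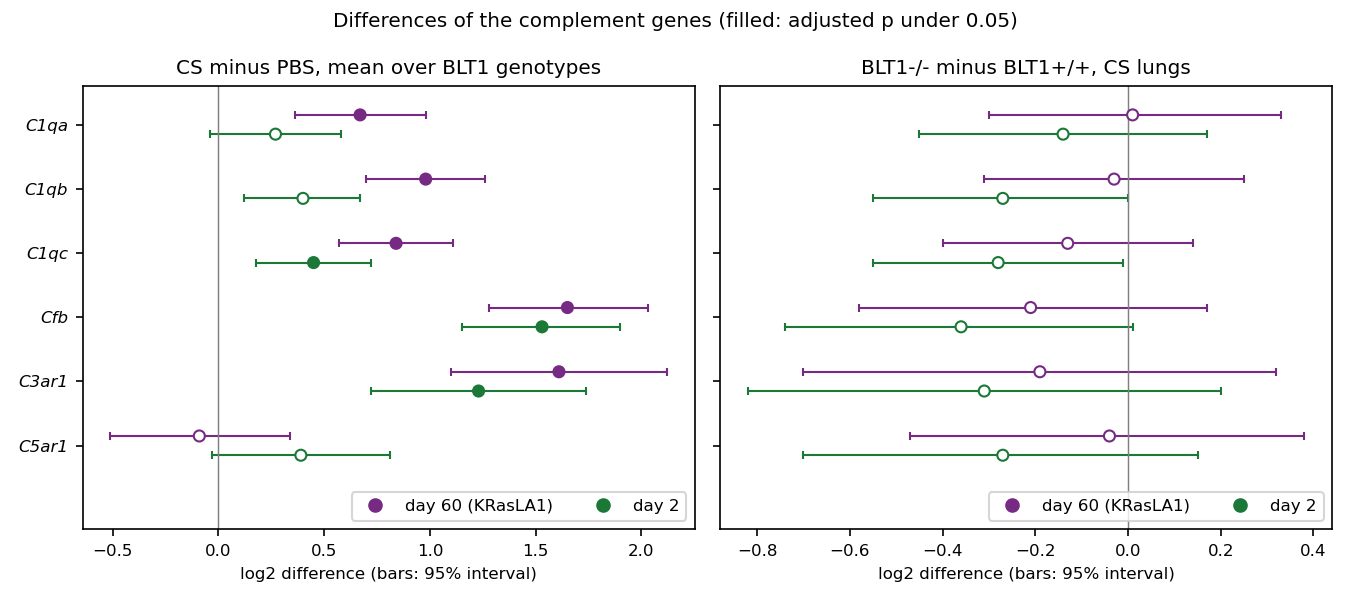
Log2 differences (horizontal axes) with 95% intervals for each gene, day 60 in purple and day 2 in green, filled where the adjusted p was under 0.05. The left panel shows CS lungs minus PBS pools averaged over BLT1 genotypes, where 5 genes passed at day 60 and 3 at day 2, and the right panel shows BLT1-/- minus BLT1+/+ CS lungs, where none passed.

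Within single genotypes, each set against its own pool, fewer genes passed. In BLT1-/-KRasLA1 lungs at day 60, C1qb (1.06, limma adjusted p = 0.0144), C1qc (0.93, adjusted p = 0.0236), Cfb (1.55, adjusted p = 0.00979) and C3ar1 (1.77, adjusted p = 0.0236) rose, where 1.1% of all genes were called higher. In BLT1+/+KRasLA1 lungs at day 60, C1qb (0.89, adjusted p = 0.0417) and Cfb (1.76, adjusted p = 0.00598) rose, where 0.687% were called higher. C3ar1 (1.45, adjusted p = 0.0734) and C1qc (0.75, adjusted p = 0.0814) fell just short there. The BLT1-/-KRasLA1 pool minus the BLT1+/+KRasLA1 pool was -0.51 for C3ar1, -0.31 for C1qc, -0.2 for C1qb and 0.01 for Cfb. The same difference between CS lungs was -0.19, -0.13, -0.03 and -0.21. The part of the single pools in the number of calls by genotype was not tested. The C1qb call in that genotype was close to the threshold: it held in 5 of 12 fits that left out 1 CS lung of any group, with adjusted p from 0.00623 to 0.0855. In BLT1-/-KRasLA1 lungs C1qc kept its call in 11 and C3ar1 in 10 of those 12 fits. At day 2 Cfb was called in BLT1-/- lungs (1.28, adjusted p = 0.011), where 5.19% of genes were called higher, and in BLT1+/+ lungs (1.77, adjusted p = 0.00596), where 0.853% were. C3ar1 in BLT1+/+ lungs at day 2 had a difference of 1.45 (adjusted p = 0.0576), which passed with replicate number as a block at day 2 (adjusted p = 0.0392).

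None of the 6 genes was called between BLT1-/- and BLT1+/+ CS lungs at either day, in limma. At day 60 the log2 difference, BLT1-/-KRasLA1 minus BLT1+/+KRasLA1, ran from -0.21 for Cfb to 0.01 for C1qa, 5 of 6 were negative, and lungs of the genotypes overlapped for each of the 6, where 10.5% of all genes did not overlap. Of all genes, 0.0401% were called at day 60, and 810 genes but none of the 6 had an unadjusted p under 0.05. At day 2 all 6 differences were negative, from -0.36 for Cfb (95% interval -0.74 to 0.01) to -0.14 for C1qa. The BLT1-/- lungs did not overlap the BLT1+/+ lungs, and lay below them, for C1qb, C1qc and Cfb, as for 6.13% of all genes. Of all genes, 0.0201% were called at day 2. An unadjusted p under 0.05 was found for 1735 genes, C1qc among them, with an adjusted p of 0.546 in limma.

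Whether BLT1 changed the response to silica was tested as an interaction, the BLT1-/- response minus the BLT1+/+ response. No gene of the 19938 was called at either day in limma (0%), and at an unadjusted p under 0.05 there were 396 genes at day 60 and 896 at day 2, with none of the 6 among them. The interaction spanned -0.21 for Cfb to 0.32 for C1qa and C3ar1 at day 60, and -0.49 for Cfb to -0.17 for C1qa at day 2. Intervals were wide, for Cfb -0.97 to 0.54 at day 60 and -1.24 to 0.26 at day 2.

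The mean silica response at day 60 minus that at day 2 was also not called for any of the 6 genes, where 2.35% of all genes were called in either direction. C1qb came closest, with a log2 difference of 0.58 ± 0.18 (limma, adjusted p = 0.137, 95% interval 0.19 to 0.97), followed by C1qc at 0.39 (adjusted p = 0.335) and C1qa at 0.40 (adjusted p = 0.419). C3ar1 differed by 0.38 and Cfb by 0.13, while C5ar1 had the opposite sign, at -0.48 ± 0.28 (adjusted p = 0.505). In PBS pools alone, day 60 minus day 2 was 0.03 for C1qb and -0.30 for C5ar1.

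Of 49 further complement genes in 4 lists by role, 46 were measured. At day 60, 8 rose and 0 fell, where 3.35% of all genes were called higher and 0.677% lower. At day 2, 5 rose and 2 fell, where 8.03% were called higher and 4.37% lower, so the day 2 counts were near those shares. The median log2 response of the 46 was 0.05 at day 60 and -0.02 at day 2, against -0.03 and -0.02 for all genes. Of 15 genes of the classical and lectin pathways, C4b (0.61, adjusted p = 0.0114), a substrate of the C1 complex, and C1s1 (0.46, adjusted p = 0.0483), a C1 protease, rose at day 60, and none was called at day 2. C4a and C4b are near-identical copies whose signals may mix, and C1s1 kept its call in only 3 of 12 fits that left out 1 CS lung. Without the lung with high Eif2s3y, C1s1 (adjusted p = 0.0776) was the 1 day 60 call of the 8 that was lost. Of 8 alternative and terminal pathway genes, properdin Cfp (0.69, adjusted p = 0.0162), which stabilises the convertase that factor B forms, and C6 (0.38, adjusted p = 0.0103), of the membrane attack complex, rose at day 60, and Hc, which encodes C5, fell at day 2 (-0.33, adjusted p = 0.00556).

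Of 13 regulators, Csmd1 rose at day 60 (0.49, adjusted p = 0.00789), and clusterin Clu (0.49, adjusted p = 0.0108) and Cfi (0.40, adjusted p = 0.0311), a protease that inactivates C3b, rose at day 2. The Cfi call was lost without replicate 2 of the BLT1-/- CS lungs (adjusted p = 0.0546) and without replicate 3 of the BLT1+/+ CS lungs (adjusted p = 0.0575). Cfi (6.39 to 7.06), Csmd1 (7.39 to 8.1) and the receptor gene Vsig4 (6.48 to 7.61) were dim, below the array medians of 8.25 to 8.34 on every array. Of 10 other receptors, the integrin chains of the receptors for iC3b, Itgam (1.37, adjusted p = 0.00552), Itgax (1.05, adjusted p = 0.0019) and Itgb2 (0.95, adjusted p = 0.000526), rose at day 60. At day 2 C1qbp (0.63, adjusted p = 0.00477), Vsig4 (0.86, adjusted p = 0.0105), a macrophage receptor of C3b, and Calr (0.27, adjusted p = 0.0192) rose, and Cr2, the complement receptor of B cells, fell (-1.05, adjusted p = 0.00819). Beside Cr2, 10 of 11 T, B and NK cell markers fell at day 2, where 4.37% of all genes were called lower. The list median was -0.95, and the B cell genes Cd79a (-1.58, adjusted p = 0.00141) and Ms4a1 (-1.55, adjusted p = 0.000671) were among those that fell. The mean level of that list at day 2 was 8.22 to 8.63 in BLT1-/- CS lungs against 9.38 in the pool, and 8.22 to 8.63 in BLT1+/+ CS lungs against 9.37, and its part in the Cr2 result was not tested. Within single genotypes fewer of the 46 were called. At day 60, 2 rose in BLT1-/-KRasLA1 lungs, where 1.1% of all genes were called higher, and 1 in BLT1+/+KRasLA1 lungs, where 0.687% were. At day 2, 3 rose and 1 fell in BLT1-/- lungs, where 5.19% of all genes were called higher. In BLT1+/+ lungs 0 rose and 0 fell, where 0.853% were called higher. How far the calls rest on either pool was not tested.

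**Figure D3:**
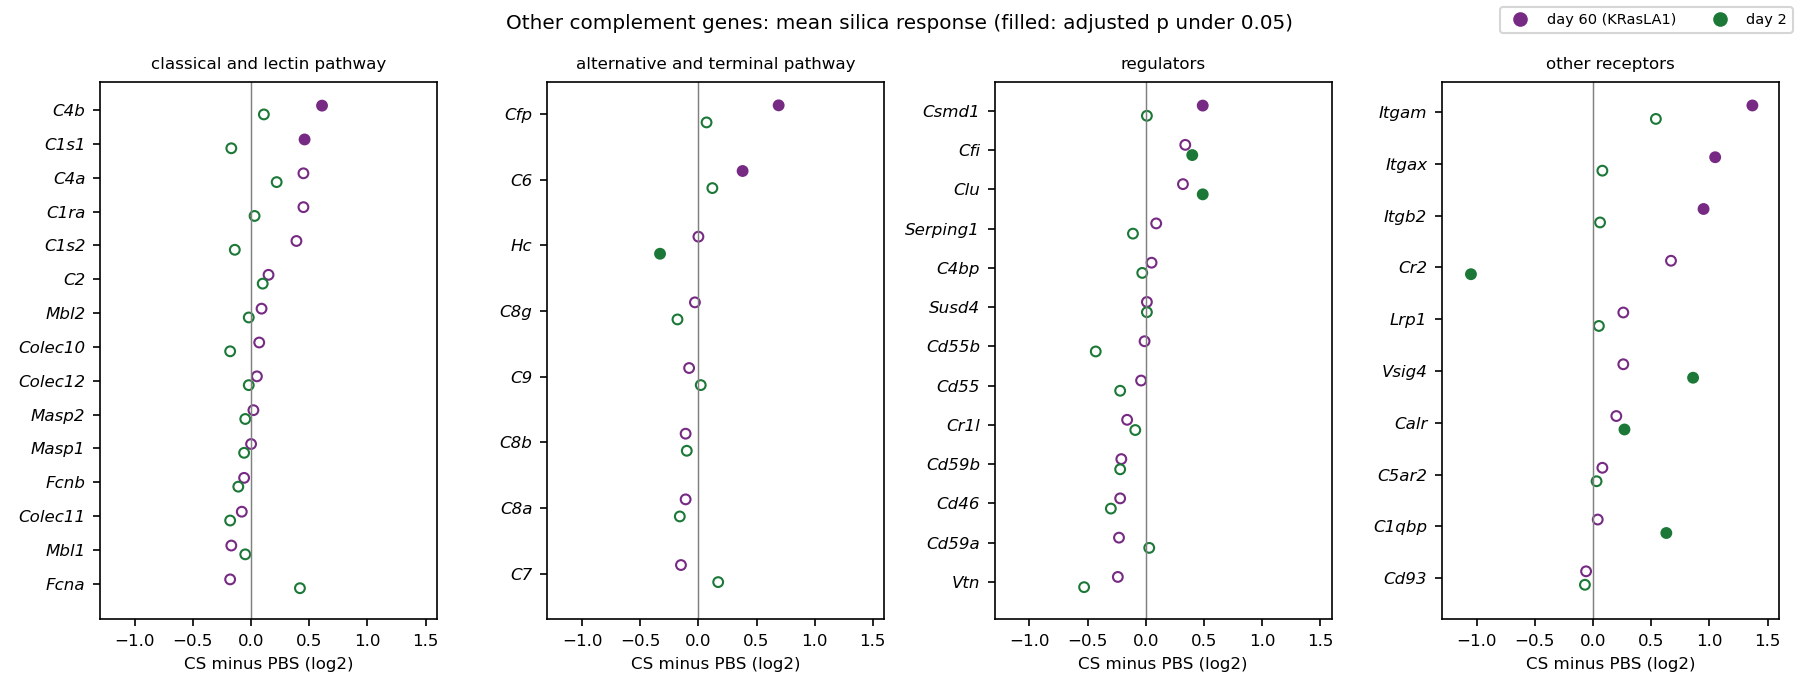
Mean silica response (CS minus PBS, log2, horizontal axes) of the 46 other complement genes by role, day 60 in purple and day 2 in green, filled where the adjusted p was under 0.05. At day 60, 8 genes were called, all higher, and at day 2, 7 were called, Hc and Cr2 among them lower.

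Cell markers moved beside these genes. At day 60, 7 of 14 macrophage and monocyte markers rose, among them Cd68 (1.04, adjusted p = 0.000827), Trem2 (1.14, adjusted p = 0.000933) and Ms4a7 (1.35, adjusted p = 0.00123), with a list median of 0.43. Of all genes, 3.35% were called higher at that day. At day 2, 3 of the 14 rose and 2 fell, where 8.03% of all genes were called higher and 4.37% lower. The list median was 0.07. The mean level of that list was 10.65 to 10.88 in BLT1-/-KRasLA1 CS lungs against 10.19 in the pool, 10.63 to 10.98 in BLT1+/+KRasLA1 CS lungs against 10.31, 10.21 to 10.29 in BLT1-/- CS lungs at day 2 against 10.17, and 10.44 to 10.48 in BLT1+/+ CS lungs at day 2 against 10.22. Their part in the C1q, C3ar1 and integrin results was not tested.

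Neutrophils carry C5ar1. The mean level of 15 neutrophil markers was 8.74 to 9.28 in BLT1-/-KRasLA1 CS lungs against 8.09 in the pool, and 8.66 to 9.42 in BLT1+/+KRasLA1 CS lungs against 8.3. At day 2 it was 9.55 to 9.89 in BLT1-/- CS lungs against 9.98 in the pool, and 9.65 to 10.32 in BLT1+/+ CS lungs against 9.57. By gene, 4 of the 15 rose at day 60, where 3.35% of all genes were called higher, and 2 at day 2, where 8.03% were. Every day 2 CS lung had a higher list level than every day 60 CS lung. Their part in the C5ar1 levels was not tested.

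Liver is the main source of complement in plasma. Of 11 hepatocyte markers, 0 were called at day 60 and 1 rose at day 2, where 8.03% of all genes were called higher. Of these 11, 9 were below the median level of all genes. Lung RNA does not measure protein that comes from plasma, so the part of the liver was not tested. Of 9 cytokines listed as inducers of C3 or factor B, 5 rose at each day. Of all genes, 3.35% were called higher at day 60 and 8.03% at day 2. At day 60 the 5 cytokines were Il1a (1.83), Il1b (1.5), Il6 (1.41), Tnf (1.06) and Csf2 (0.82). At day 2 they were Il6 (3.73), Il1a (2.09), Tnf (1.42), Osm (0.89) and Lif (0.55). In the response at day 60 minus day 2, 1 of the 9 was called lower, and the lowest log2 difference was -2.32. Cfb was not called in that comparison (0.13). The part of these cytokines in the Cfb result was not tested.

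Patterns over the 16 arrays, which share 1 normalisation, are given as correlations and only as descriptions. The 3 C1q genes had r of 0.926 to 0.95 with each other, and Cfb and C3ar1 had 0.928. C1qc was about as close to C3ar1 (0.913) and Cfb (0.909), and over the 12 CS lungs alone Cfb was at 0.689 with C3ar1, 0.833 with C1qa and 0.832 with C1qc. C5ar1 had r from -0.286 to 0.185 with the other 5 over 16 arrays, which mix the days. Within the 6 CS lungs of day 60 its r with them was 0.488 to 0.739, and within those of day 2 it was -0.2 with C1qa to 0.757 with C3ar1. Outside the set, Gatm was the gene most like each of the 3 C1q genes (r = 0.949 for C1qa, 0.975 for C1qb and 0.933 for C1qc). The genes most like Cfb were Ly6i (0.96), Lcn2 (0.949) and Zbp1 (0.949), those most like C3ar1 were Ms4a6d (0.971), Plau (0.963) and Msr1 (0.955), and those most like C5ar1 were Trem1 (0.954), Rdh12 (0.936) and Il1rap (0.934). Over the 12 CS lungs alone, r with Cfb was 0.864 for Ly6i, 0.704 for Lcn2 and 0.95 for Zbp1. With C3ar1 it was 0.903 for Ms4a6d, 0.801 for Plau and 0.79 for Msr1. With C5ar1 it was 0.983 for Trem1, 0.96 for Rdh12 and 0.966 for Il1rap. Gatm had 0.91 with C1qa, 0.966 with C1qb and 0.843 with C1qc in those lungs.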

How the data were processed

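Total lung RNA was hybridised to 16 Affymetrix arrays. Each deposited value is a log2 level of a probe set, and the submitters' processing notes name RMA and Partek 6.6, with no order of steps. Array medians lay between 8.25 and 8.34, and 0 columns were left unused. Of 35556 probe sets, 1621 with several symbols and 12146 with none were left out, and the probe set with the highest mean represented each of 19938 genes.

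A limma 3.58.1 model of group means (R 4.3.3) was fitted over the 16 arrays (eBayes with trend, 8 residual and 5.4 prior degrees of freedom), tested on simulated data beforehand. A PBS pool has no replicate so the fit gives it the variance of CS lungs. The 11 contrasts were tested two-sided with Benjamini-Hochberg adjustment at 0.05 and share samples and variance. The number of arrays limits the precision. Array weights, no trend, quantile normalisation, arrays of 1 day, averaged pools, left-out lungs or pools and replicate blocks were alternatives.

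Same-numbered CS lungs of the BLT1 genotypes had deviations that correlated at 0.43, 0.20 and 0.34 at day 2, and at 0.09, 0.01 and 0.06 at day 60. The labels state no pairing, and deviations within a group of 3 lungs depend on each other, so these values do not settle whether lungs were paired. The reported tests have no block at either day, and the day 2 block was run only as an alternative. Over all genes it gave 21 calls between BLT1 genotypes at day 2, against 4 as reported. The members and gene lists were chosen with earlier results of these data known. All members are named, with other complement genes past the threshold, up to 4 genes of each other list by p, and the 3 genes with the highest r to each member, leaving out predicted genes, small RNAs and receptor segments.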

Additional observations from a re-analysis of the deposited data

Results flagged for a closer look

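In the limma test of the day 60 mean response minus the day 2 mean response, 3 of the 46 other complement genes were called, all receptor genes. None of the 6 members was called, and 2.35% of all genes were called in either direction. Cr2, a complement receptor of B cells, differed by 1.72 ± 0.32 on the log2 scale (adjusted p = 0.0109). In the same comparison 10 of 11 T, B and NK cell markers were called higher, with a list median of 1.28, and their part in the Cr2 difference was not tested. Itgb2, the shared chain of the iC3b receptors, differed by 0.89 ± 0.17 (adjusted p = 0.0124). Itgax, the alpha chain of one of them, differed by 0.98 ± 0.22 (adjusted p = 0.038), and kept its call in 6 of 12 fits that left out 1 CS lung. Without the BLT1+/+KRasLA1 CS lung with high Eif2s3y it was 0.95 (adjusted p = 0.0597). In the same comparison 4 of 14 macrophage and monocyte markers were called higher, with a list median of 0.43. So were 2 of 15 neutrophil markers, with a list median of 0.99. The part of both lists in the Itgb2 and Itgax differences was not tested. Day and KRasLA1 cannot be told apart in any of these differences.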

How the results depend on the processing

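Of the 6 genes, the number called for the mean silica response at day 60 was 5 in every fit that left out 1 CS lung. At day 2 it was 3, and 2 to 4 with 1 CS lung left out. Additive fits without a PBS pool give the response of the genotype that keeps its pool, so their counts are not set beside these. In single genotypes the counts moved more. For BLT1-/-KRasLA1 at day 60, 4 became 1 with the 8 arrays of the day, and 2 to 5 with 1 lung left out. For BLT1+/+KRasLA1 at day 60, 2 became 4 with array weights, 1 without the trend, 1 with the 8 arrays of the day, 5 with averaged pools, and 1 to 4 with 1 lung left out. For BLT1-/- at day 2, 1 became 2 with array weights, 2 with the 8 arrays of the day, 2 with averaged pools, and 1 to 2 with 1 lung left out. For BLT1+/+ at day 2, 1 became 2 with array weights, 2 with the 8 arrays of the day, 4 with averaged pools, and 1 to 3 with 1 lung left out. The causes were not tested. The replicate block gave 1 call for BLT1+/+KRasLA1 at day 60 with both days or day 2 alone blocked, and 2 for BLT1+/+ at day 2 with day 2 alone blocked, a pairing chosen after seeing the data. It moved no other count of the 6 genes by over 1.5 times. BLT1 differences, interactions and the difference between days gave 0 calls of the 6 under every alternative run. Signs turned only among uncalled values. C5ar1 in BLT1-/-KRasLA1 lungs at day 60 was 0.04 with array weights and -0.15 to 0.09 with 1 lung left out. With 1 lung left out, the BLT1 difference at day 60 was -0.14 to 0.14 for C1qa, -0.16 to 0.13 for C1qb, -0.39 to 0.00 for Cfb, -0.51 to 0.02 for C3ar1 and -0.15 to 0.09 for C5ar1, and the interaction at day 60 was 0.00 to 0.53 for C3ar1, -0.03 to 0.21 for C5ar1 and -0.39 to 0.00 for Cfb. Over all genes, with the additive fits aside, calls of the mean response ranged from 573 to 1729 at day 60 (802 as reported). They ranged from 1589 to 3299 at day 2 (2473), and those of the day difference from 312 to 977 (469). In single genotypes they ranged from 69 to 876 (234) for BLT1-/-KRasLA1, 43 to 676 (152) for BLT1+/+KRasLA1, 425 to 2647 (1315) for BLT1-/- and 65 to 1060 (232) for BLT1+/+, and for BLT1 differences from 1 to 14 (8) at day 60 and 1 to 21 (4) at day 2.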
